A study of Mus musculus with 9 samples.

Results

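Replication-dependent histone genes encode the linker histones H1 and the core histones H2A, H2B, H3 and H4 that package newly made DNA. They were taken as the genes whose GENCODE M21 symbol starts with Hist1h, Hist2h, Hist3h or Hist4h, 70 genes in all, of which 67 were protein-coding and 3 were pseudogenes (Hist3h2bb-ps, Hist1h2aj and Hist1h2al). The windows of the table of GpC methylation that overlapped the body of such a gene or the 1 kb upstream of it numbered 98 of the 829493 windows with a value in all 9 libraries. Of these, 52 held the annotated 5′ end of at least 1 histone gene and are called start windows here, and the other 46 lay over gene bodies or upstream stretches. The measurement was NOMe-seq, in which a GpC methyltransferase marks DNA that is not covered by nucleosomes or other proteins in fixed nuclei, so that a higher percent GpC methylation means more open chromatin. Each window spanned 200 read positions, and its value is the percent of GpC methylation calls.

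All cells were female FVB/CAST F1 mouse embryonic stem cells that were expanded in 2i. The cells of days 4 to 7 were weaned into DME HiHi medium to differentiate, transduced with a virus carrying a short hairpin RNA on day 2 and selected with puromycin from day 3. The libraries were 1 of undifferentiated cells on day 0, 4 of cells with the Nons hairpin, the non-silencing control, on days 4, 5, 6 and 7, and 4 of cells with a hairpin against Smarcc1, which encodes a scaffold protein of BAF-type chromatin remodellers, on the same days. Every condition was 1 library, so no difference between a pair of libraries has a replicate check, and the SDs given over libraries or days describe the spread of these libraries. RNA data were not used here, so neither the knockdown of Smarcc1 nor the identity of the cells was checked against expression. The number of reads behind a window is unknown. The libraries differed in overall level: the median of autosomal windows lay between 6.41% on day 7 of Nons and 21.2% on day 5 of Nons, and between 0.0292% and 5.43% of windows were at exactly 0. Histone windows were therefore set against the other promoter windows of the same library, 29508 autosomal windows that hold the 5′ end of another gene, either as a difference in percentage points or as a percentile, where 50 is the median of the other promoter windows.

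Replication-dependent histone genes are transcribed mainly in S phase, in a nuclear domain called the histone locus body that forms on the NPAT protein. Their mRNAs lack a poly(A) tail and end in a short stem-loop that is bound by SLBP. Most are packed in clusters, and many H2A and H2B genes are transcribed away from each other from 1 shared stretch between their starts. In this annotation 56 genes belonged to Hist1, 10 to Hist2, 3 to Hist3 and 1 to Hist4. Hist1 lies on chromosome 13 in a proximal run of 24 genes (21715763 to 22043676) and a distal run of 31 genes (23531050 to 23934851), with the pseudogene Hist1h2al alone at 51202727. Hist2 lies on chromosome 3 (96219865 to 96270132), Hist3 on chromosome 11 (58948920 to 58956830) and Hist4 on chromosome 6 (136801553 to 136804415). All coordinates are mm10. By type there were 20 H2A, 19 H2B, 13 H4, 12 H3 and 6 H1 genes, and 30 genes formed 15 divergent pairs with starts within 1000 bases of each other.

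The histone genes shared sequence features that the choice by name did not use. A perfect stem-loop, a 6-base stem that begins with GG around a 4-base loop that begins with TT, was found in 64 of the 70 genes or the 100 bases after them, and in 42 of these the 16 bases were identical. It was not found in Hist1h2aj, Hist1h2al, Hist1h2an, Hist1h3g, Hist1h4a and Hist2h2be. Other genes were not searched for it, so no background share stands beside this count. The stretch searched was the whole gene model, which reaches 37.5 kb for Hist1h2be. The stem-loop of the common form is shown for Hist1h2ae beside the variants of the testis gene Hist1h1t and of the lone Hist4h4, with the stem in capitals (DNA letters of the transcribed orientation, mm10).

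Hist1h2ae, chr13:23570668-23570683, minus strand: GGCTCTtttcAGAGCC
Hist1h1t, chr13:23696525-23696540, plus strand: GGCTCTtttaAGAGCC
Hist4h4, chr6:136803998-136804013, minus strand: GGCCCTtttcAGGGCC

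RefSeq promoters (GRCm38.p6) were matched by Entrez gene number for 62 of the 70 genes, and 4 motifs were searched on both strands of the 250 bases before the start. CCAAT, the box bound by NF-Y, was present in 51 of the 62 (82.3%), against 33.8% of the 32788 promoters of other genes. It was present in every one of the 18 H2A, 16 H2B and 6 H1 promoters, in 8 of 10 H3 promoters and in 3 of 12 H4 promoters. The TATA box TATAAA was present in 29 of 62 (46.8%, against 12.3% elsewhere). The octamer ATTTGCAT, which POU proteins of the OCT family bind, was present in 7 of the 18 H2A and 6 of the 16 H2B promoters and in none of the H1, H3 or H4 promoters, against 1.56% elsewhere. AAACACA, known as the H1 box, was present in 5 of the 6 H1 promoters, against 6.23% elsewhere. The genes of a divergent pair can share these bases, so that 1 match can count for both. Of the 13 promoters with an octamer, 10 were of genes with a divergent partner. Hist1h2be was scored before the RefSeq start nearest its annotated start, where no octamer was found, although its second RefSeq start below has 1. None of the 4 motifs contains another, and a match is a description of these letters only. The sequences below show the stretches between the starts of a divergent pair in Hist1 and one in Hist2, a start of the H2B gene Hist1h2be that is used further on, a somatic H1 promoter, the promoter of the testis H1 and that of Hist4h4, with matches to any of the 4 motifs in capitals. Hist4h4 had none in this stretch.

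Hist1h2ae to Hist1h2bg, chr13:23571221-23571395, plus strand: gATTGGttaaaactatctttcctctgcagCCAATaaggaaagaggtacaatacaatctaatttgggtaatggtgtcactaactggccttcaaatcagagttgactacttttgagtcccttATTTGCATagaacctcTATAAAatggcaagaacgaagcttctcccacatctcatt
Hist2h2ac to Hist2h2be, chr3:96220881-96221118, plus strand: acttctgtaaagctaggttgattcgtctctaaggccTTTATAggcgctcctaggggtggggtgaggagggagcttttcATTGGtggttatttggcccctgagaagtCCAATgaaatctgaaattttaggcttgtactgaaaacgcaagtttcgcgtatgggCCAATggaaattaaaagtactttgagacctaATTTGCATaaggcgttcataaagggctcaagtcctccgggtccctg
Hist1h2be, second RefSeq start, chr13:23585971-23586120, minus strand: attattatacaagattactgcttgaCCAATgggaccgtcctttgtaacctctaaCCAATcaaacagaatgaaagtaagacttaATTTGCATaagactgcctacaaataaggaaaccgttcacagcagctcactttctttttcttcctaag
Hist1h1e, chr13:23622559-23622708, minus strand: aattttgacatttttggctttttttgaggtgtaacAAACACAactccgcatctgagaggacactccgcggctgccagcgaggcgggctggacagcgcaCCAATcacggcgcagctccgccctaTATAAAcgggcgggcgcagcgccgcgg
Hist1h1t, chr13:23695661-23695810, plus strand: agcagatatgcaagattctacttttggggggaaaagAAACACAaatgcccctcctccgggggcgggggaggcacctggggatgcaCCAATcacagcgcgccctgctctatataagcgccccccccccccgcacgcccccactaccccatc
Hist4h4, chr6:136804432-136804581, minus strand: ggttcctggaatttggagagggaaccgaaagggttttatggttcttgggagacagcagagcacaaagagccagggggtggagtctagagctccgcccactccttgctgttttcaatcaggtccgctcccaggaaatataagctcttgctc

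Histone windows were more open than the other promoter windows in each of the 9 libraries. On day 0 their median was 21.6%, against 13.7% for the other promoter windows. In the Nons libraries it was 30.3% against 17.3% on day 4, 37.9% against 27.3% on day 5, 17.3% against 12.9% on day 6 and 11.4% against 8.04% on day 7. In the knockdown libraries it was 23.2% against 13.6% on day 4, 33.9% against 24.1% on day 5, 22.3% against 14.6% on day 6 and 12.7% against 8.82% on day 7. The absolute levels of both sets moved up and down together between libraries, and the order of the 2 medians was the same throughout. The difference averaged 7.80 points ± 3.35 (SD over 9 libraries), or 0.58 ± 0.14 as a log2 ratio, and ranged from 3.41 to 13.1 points.

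The start windows carried most of this difference. Their medians were 27.0% on day 0, 35.5%, 42.05%, 21.7% and 14.7% in Nons on days 4 to 7, and 26.1%, 38.6%, 27.7% and 17.5% in the knockdown on the same days. They lay 12.3 points ± 3.62 above the other promoter windows, with a range of 6.69 to 18.2 points. As a percentile the median start window stood at 87.1 ± 4.40 on average, between 80.5 on day 6 of Nons and 94.9 on day 4 of Nons. The 46 histone windows without a start stood at 60.2, between 44.4 and 77.7. All 98 windows together stood at 77.7 ± 7.22, between 68.2 and 89.4.

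**Figure D1:**
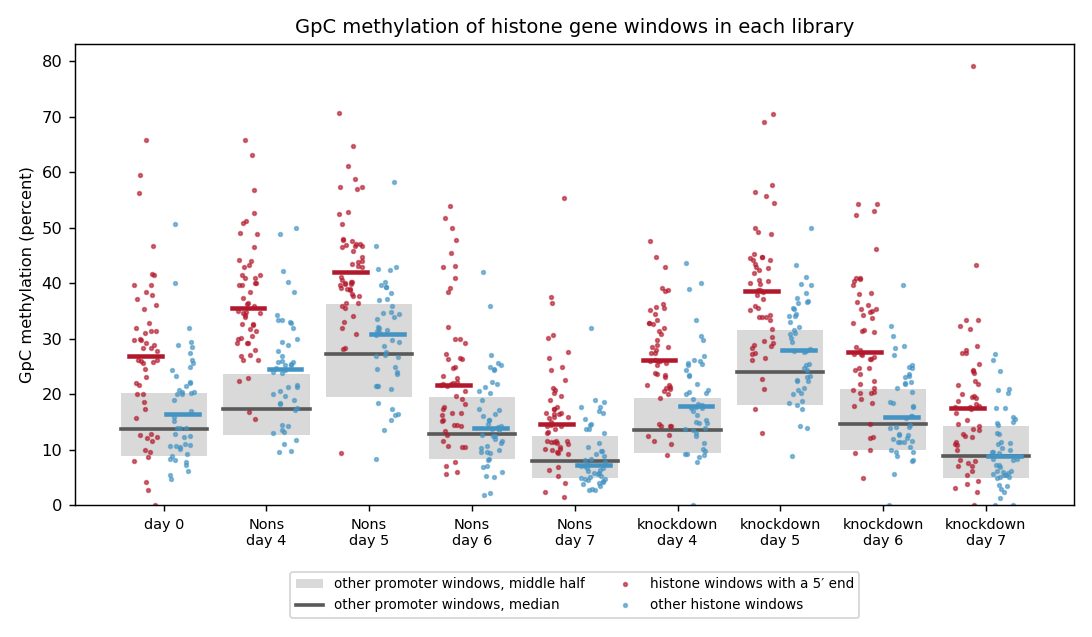
Percent GpC methylation (vertical axis) of the 98 histone windows in each of the 9 libraries (horizontal axis), with 1 point per window, coloured lines at the medians, and the other promoter windows as a grey interquartile band with a line at the median. The red medians of the 52 start windows lie above the grey line in every library, by 6.69 to 18.2 points.

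Of the 98 histone windows, 26 (26.5%) were above the median of the other promoter windows in all 9 libraries, as were 23 of the 52 start windows (44.2%). The background was 5.28% of the other promoter windows. No histone window was below that median in all 9 libraries, against 2.89% of the other promoter windows. Above the 90th percentile in 5 or more of the 9 libraries were 23 histone windows, 20 of them start windows, against a background of 3.88%. Single windows were noisy, however: the 9 values of 1 window often ran from well below to well above the promoter median, and no window was above the 90th percentile in every library.

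The rank declined with distance from the histone starts. Windows whose centre lay within 0.5 kb of a histone start had a median percentile of 89.6 (range over libraries 83.1 to 95.5, 21 windows), those at 1 to 2 kb 77.9 (32 windows), those at 3 to 5 kb 53.8 (33 windows) and those at 5 to 10 kb 44.1 (54 windows). At 20 to 50 kb it was 36.9 (186 windows), next to 34.8 at the same distance from the starts of other genes. Around other genes the value within 0.5 kb was 53.7. The 182 windows that lay between histone genes of a run without touching one stood at 44.1, between 40.03 and 50.2 over the libraries, below the start windows in each of the 9 libraries. On day 7 of Nons they stood at 50.2 and the histone windows without a start at 44.4.

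**Figure D2:**
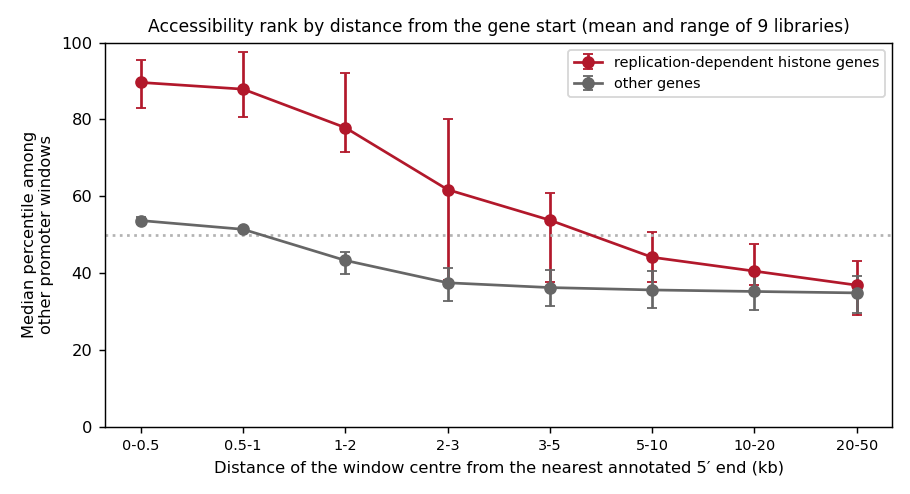
Median percentile among other promoter windows (vertical axis, 0 to 100) by distance of the window centre from the nearest annotated 5′ end (horizontal axis, kb), for histone genes in red and other genes in grey; points are means and bars the range over the 9 libraries. The red line descends from 89.6 within 0.5 kb to 36.9 at 20 to 50 kb, where it meets the grey one.

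Sequence composition and repeated sequence were compared beside the level. Start windows held 26.3 CpG per kb at the median, against 14.5 in the other promoter windows, with 44.9% GC against 47.1% and 2462 bases against 2438. Against the other promoter windows whose CpG density lay between the 5th and the 95th percentile of the histone windows, the difference over all histone windows was 7.46 points, next to 7.80 points against all of them. This range kept 23420 of the 29508 other promoter windows, so it matched CpG density only loosely. The start windows alone were not matched for CpG density. Of the 52 start windows, 36 had over 10% of their 31-base words repeated elsewhere on the 4 chromosomes that hold these genes, and reads of such copies may not have been placed. Those 36 windows stood at a percentile of 87.9 ± 5.44, and the 16 start windows with 10% or less stood at 84.6 ± 4.42, which were 10.9 points above the other promoter windows and above them in 9 of 9 libraries. Of the histone windows without a start, the 33 with little repeated sequence were at a percentile of 55.5 and the 13 with more at 68.6.

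The 5 histone types stood close together. The start windows of H2A genes had a mean of the library medians of 88.7 on the percentile scale (20 windows), those of H2B genes 88.3 (19 windows), of H3 genes 87.0 (12 windows), of H4 genes 86.2 (13 windows) and of H1 genes 82.3 (6 windows). A window that holds starts of more than 1 type counts under each. Over the libraries these values ranged from 80.8 to 97.8 for H2A and from 69.6 to 96.5 for H1, so the order of neighbouring types was within the spread over libraries. The 11 windows that held both starts of a divergent pair stood at 90.3 and the 36 windows with 1 start at 85.6, again with overlapping ranges over the libraries. Start windows with a CCAAT box were at 87.1 (41 windows) and those without at 84.9 (7 windows), and those with an octamer were at 89.3 (11 windows) against 86.4 without (37 windows). With a TATA box the order was the other way, 86.5 (26 windows) against 86.9 without (22 windows), and each of these ranges over libraries overlapped its counterpart. By cluster, the start windows of Hist1 were at 87.3 (42 windows) and those of Hist2 at 87.2 (7 windows). Within Hist1 the proximal run was at 85.9 and the distal run at 87.7.

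**Figure D3:**
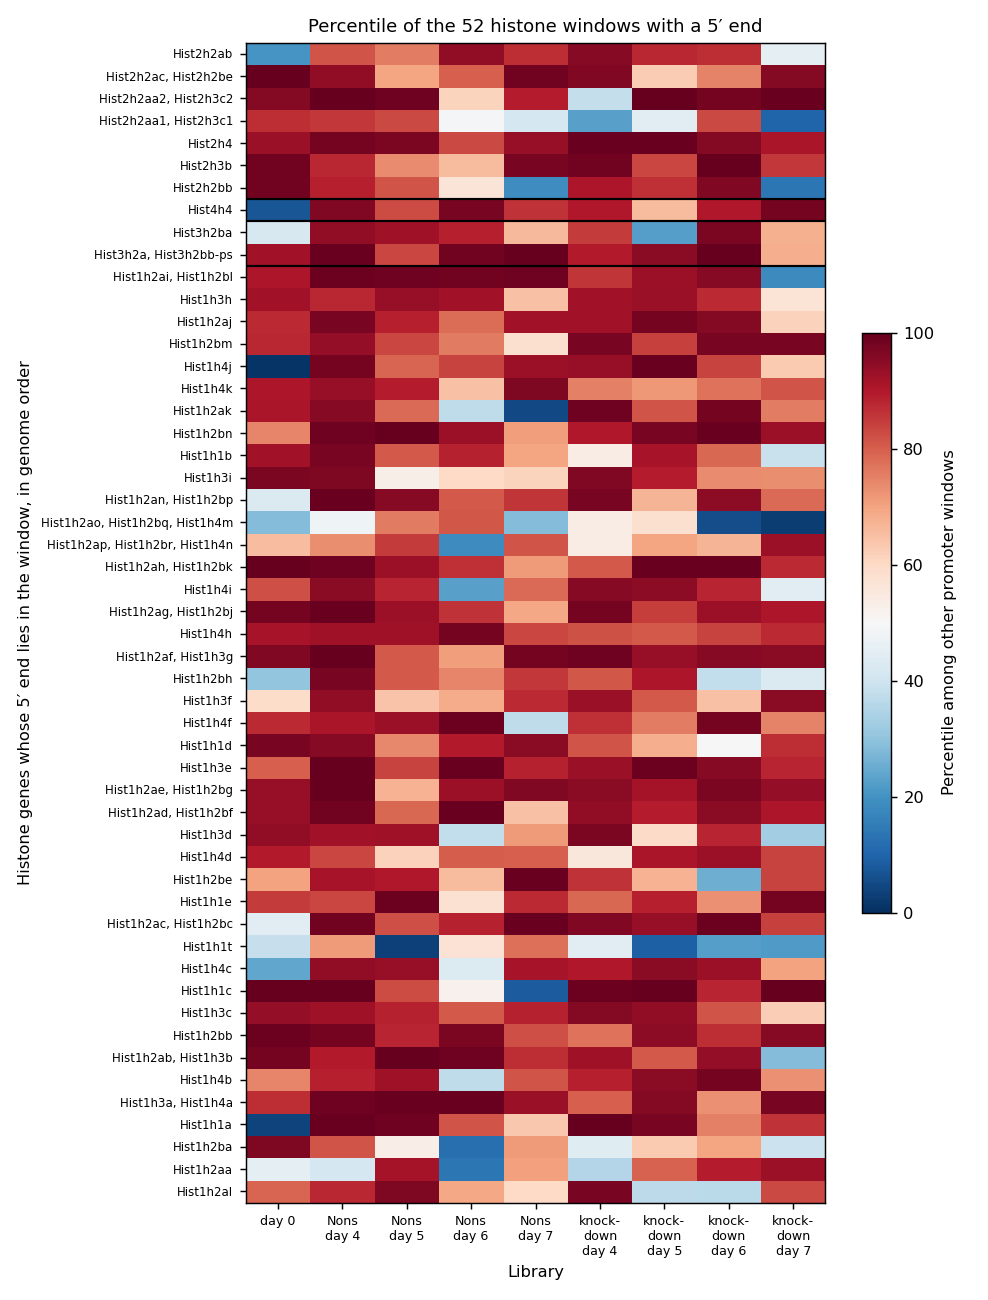
Percentile among other promoter windows (colour, 0 blue to 100 red, white at 50) of the 52 start windows (rows, in genome order, named by the genes that start in them, with black lines between chromosomes) in the 9 libraries (columns). Most cells are red, while the rows of Hist1h1t and of the window of Hist1h2ao, Hist1h2bq and Hist1h4m, with mean percentiles of 38.4 and 42.4, are mostly pale or blue.

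The most open histone window by mean percentile was the start of Hist2h4, an H4 gene of the Hist2 cluster (chr3:96262194-96264362). Its values were 30.99% on day 0, 41.0%, 52.8%, 23.0% and 21.1% in Nons on days 4 to 7, and 44.7%, 57.8%, 36.1% and 22.4% in the knockdown. It was above the 90th percentile in 8 of 9 libraries, with a mean percentile of 94.5 ± 5.17, the smallest spread of the leading windows. Next came the window of Hist1h2af and Hist1h3g (92.1 ± 9.67), the start of Hist1h3e (91.9 ± 7.31), the divergent pair Hist1h2ae and Hist1h2bg printed above (91.9 ± 9.52), and the pair Hist3h2a and Hist3h2bb-ps (91.8 ± 10.4). The Hist1h2ae and Hist1h2bg window ranged from 24.4% to 51.3%, with a median of 31.4%, and was also above the 90th percentile in 8 libraries. The differences between these leading windows were smaller than the SDs of their percentiles over libraries.

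The sixth was the start window of Hist1h3a and Hist1h4a (91.5 ± 9.61), and next to it at 91.5 ± 13.2 was the highest of the windows that hold no annotated start (chr13:23584796-23587400, chosen for description after its value was seen). GENCODE M21 gives the H2B gene Hist1h2be a model of 37.5 kb, and this window lies 35.2 kb from its annotated start. The window holds the whole coding sequence of the gene (23585579 to 23585956, 378 bases) and its stem-loop, and the second RefSeq start whose upstream sequence is printed above, with 2 CCAAT boxes and an octamer. Its values were 40% on day 0, 50%, 58.2%, 35.8% and 16.9% in the Nons libraries, and 40%, 38.3%, 39.7% and 10.3% in those of the knockdown. It was above the promoter median in all 9 libraries. The other 12 windows that overlap the Hist1h2be body alone had mean percentiles of 29.8 to 60.9. The window with the annotated start of Hist1h2be, which it shares with the body of the neighbouring H1 gene Hist1h1e, was at 75.5. In Hist1h1d, an H1 gene whose coding sequence runs from 23555090 to 23555752, the start window was at 82.1 and the next window, which holds most of the coding sequence, at 86.6. Only 2 genes, Hist1h2be and Hist1h3b, had a coding start outside the window with the annotated start. For Hist1h3b the order was the other way. The window with its coding start (chr13:23752338-23754947) was at 71.4 and that with its annotated start at 85.4.

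At the other end, 1 of the 6 lowest histone windows was a start window and the other 5 were not. The 3 lowest were the last window of the long Hist1h2bc model (28.9) and a pair of windows inside the Hist1h2be body (29.8 and 34.1). Next, and lowest of the start windows, was that of Hist1h1t, the H1 of male germ cells. Its values were 11.5% on day 0, 22.4%, 9.46%, 14.5% and 13.04% in the Nons libraries, and 12.6%, 13.04%, 9.46% and 4.44% in the knockdown libraries. Its mean percentile was 38.4 ± 26.6, and it was above the promoter median in 3 of 9 libraries. This window (chr13:23693242-23696108) lies mostly upstream of the gene, whose annotated start is at 23695814. Most of the coding sequence (23695866 to 23696492) lies in the next window, which holds the start of Hist1h4c and was at 77.2. After the Hist1h1t start window came a window of the body of Hist1h2ac (38.8) and the upstream window of the pseudogene Hist1h2al (40.7). The Hist1h1t gene carries a CCAAT box, an H1 box and a stem-loop, as do the somatic H1 genes other than Hist1h1a, whose promoter stretch held no match to the H1 box. The testis pair Hist1h2ba and Hist1h2aa, which encode TH2B and TH2A and end the distal run, stood at 59.0 and 62.1. The 3 testis start windows together were at 52.3, between 13.7 and 71.4 over the libraries, and the 49 other start windows at 88.2, between 80.8 and 95.5. The ranges over libraries did not overlap. The start of Hist1h2ba, at 23934156, also lies close to the end of its window, at 23934252. Where a start lies within its window was not matched between these sets. The cells were not germ cells by their label, and expression was not examined here.

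The 5 somatic H1 genes stood at 84.3 together. Hist1h1e was at a mean percentile of 83.4, Hist1h1d at 82.1, Hist1h1c at 81.1, Hist1h1a at 78.4 and Hist1h1b at 76.8. The window of Hist1h1c, the shortest of all histone windows with 1413 bases, had the most scattered values: 59.5% on day 0, 65.8%, 39.9%, 13.3% and 2.33% for Nons, and 42.9%, 69.1%, 27.3% and 79.2% for the knockdown. Hist1h1a, the last gene of the somatic part of the distal run, was at 2.78% on day 0 and at 47.7% to 57.3% in the 4 libraries of days 4 and 5. Hist4h4 and Hist1h4j were likewise near 0 on day 0 (4.26% and 0) and at 26% to 39.9% and 28.9% to 56.4% on days 4 and 5. Each of these low values is 1 window in 1 library.

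In Hist3, the H2B gene Hist3h2ba was at 72.9 and the window of Hist3h2a at 91.8. Hist4h4, the only H4 gene outside the clusters, was at 79.2, with values of 37.4%, 39.9%, 39.2% and 16% in the Nons libraries, and 26%, 28.3%, 28.6% and 33.3% in the knockdown libraries. The pseudogene Hist1h2al, far from the clusters, was at 71.8, and the pseudogene Hist1h2aj, which is the divergent partner of Hist1h2bm, was at 87.9. At the ends of the proximal run, the window of Hist1h2ai and Hist1h2bl was at 86.3 and that of Hist1h2ag and Hist1h2bj at 90.1. At the ends of the distal run, Hist1h4h was at 87.9 and Hist1h2aa at 62.1.

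In the middle of the proximal run, a segment holds copies of 3 genes (Hist1h2bq, Hist1h2ao and Hist1h4m, and Hist1h2br, Hist1h2ap and Hist1h4n). Its 3 windows were 16485, 9473 and 11191 bases long since a window extends until it holds its 200 read positions, and between 88.1% and 94.0% of their 31-base words were repeated. They stood at 42.4, 55.3 and 67.4. For these genes the reads of the copies cannot be told apart, and the values are uncertain. Another repeated window, that of Hist2h2aa1 and Hist2h3c1 with 53.3% repeated words, was at 56.2, while its mirror copy Hist2h2aa2 and Hist2h3c2, with 75.9%, was at 86.6.

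Other genes gave a scale for these values. Genes for replication-independent variant histones had their starts in windows for 9 of the 11 genes listed. Their mean of library medians was 70.7, between 58.1 and 92.2 over the libraries, and single genes ran from 85.4 for H2afv to 38.3 for H3f3b. The 14 genes of histone gene regulation and mRNA processing stood at 75.9, between 49.3 and 92.7. Among them Npat, the organiser of the histone locus body, was at 93.1 and Hinfp, which activates H4 genes, at 86.9, both above the promoter median in 9 of 9 libraries, while Zfp473 (ZFP100), a subunit of the processing machinery, was at 31.3. The order of the sets was not the same in every library. On day 4 of the knockdown the variants (92.2) lay above the start windows (90.2), and on day 5 the regulators (92.7) did (88.9).

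The knockdown question was whether histone windows moved with loss of Smarcc1 beyond the other promoter windows. They did not move in 1 direction. On day 4 the median difference between the knockdown and the Nons library was -8.55 points in histone windows and -3.61 points in the other promoter windows, a relative difference of -4.94 points, and 45 of the 52 start windows (86.5%) were lower in the knockdown library, against 67.3% of the other promoter windows. On day 5 the relative difference was 1.22 points, on day 6 it was 2.32 points and on day 7 it was 0.016 points. In the start windows it was -6.76, 0.0871, 4.57 and -1.02 points. The mean over days was -0.35 ± 3.20 points (SD, n = 4 days), which is far smaller than the spread between days. Without day 4 the mean was 1.19 points and without day 6 it was -1.24 points. Differences in points also depend on the level, which was higher in the histone windows. The log2 ratio of the histone median to that of the other promoter windows was 0.813 in Nons and 0.767 in the knockdown on day 4. On day 6 this ratio was 0.420 in Nons and 0.609 in the knockdown.

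**Figure D4:**
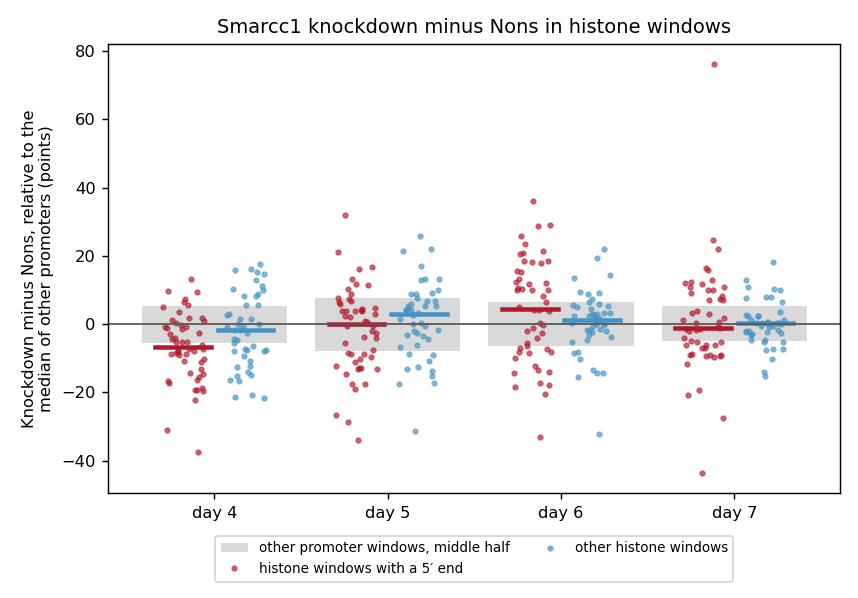
Smarcc1 knockdown minus Nons in percentage points, after subtraction of the median of the other promoter windows (vertical axis), on days 4 to 7 (horizontal axis), with 1 point per histone window, coloured lines at the medians and the other promoter windows as a grey interquartile band around 0. The red median of the start windows lies at -6.76 on day 4 and at 4.57 on day 6.

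In a limma fit over all 829493 windows, with the day as a block and the days as replicates of the knockdown, no window passed an adjusted p of 0.05 (Benjamini-Hochberg, 0% called) and the lowest adjusted p was 0.995. At an unadjusted p under 0.05, 5 histone windows were higher and 8 lower in the knockdown. The background was 1.58% higher and 2.65% lower over all windows, and 2.54% higher and 6.17% lower over the other promoter windows. The histone shares were 5.10% and 8.16%, counts of a few windows in a fit in which all windows together gave no adjusted call. Relative to the other promoter windows, 5 histone windows were higher on all 4 days and 5 were lower on all 4 days, 5.10% each, against 6.49% and 6.32% of the other promoter windows. On the values as deposited, 5 were higher on all 4 days (5.10%, against 4.2% of the other promoter windows) and 11 were lower (11.2%, against 7.96%). On the relative scale the shares are near the background and are no result about histone genes.

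Of the windows that were lower on all 4 days, the start of Hist1h2ai and Hist1h2bl, the first divergent pair of the proximal run, had the largest difference. On days 4 to 7 its Nons values were 44.2%, 56.9%, 43.1% and 30.6%, and its knockdown values 23.5%, 41.8%, 34.8% and 3.85%, a limma difference of -17.7 ± 3.99 points (SE, unadjusted p = 0.00036, adjusted p = 0.995). Next were the second window of Hist1h1d (-16.3 ± 11.9 points relative to other promoters, SD over days), the annotated start of Hist1h2be (-11.6 ± 7.00), the start of Hist1h1d (-8.30 ± 5.18) and a window of Hist2h3c2 (-5.00 ± 1.70). Higher on all 4 days were a window of Hist1h1b (12.2 ± 9.39), the upstream window of Hist4h4 (9.33 ± 7.59), the start of Hist2h4 (6.82 ± 4.61), a window of Hist1h2ae and Hist1h2bg (6.45 ± 5.76) and one inside Hist1h2be (3.78 ± 3.51). None of these passed an adjusted p of 0.05 for the knockdown.

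By percentile, histone windows stood highest on day 4 in both arms and lower on days 6 and 7. The median change from day 0 in Nons, relative to the other promoter windows, was 6.18 points on day 4, 3.47 on day 5, -3.10 on day 6 and -2.76 on day 7. In the knockdown it was -0.15, 0.79, -1.52 and -2.59 points, so that in points day 5 was the highest there. These comparisons share the 1 library of day 0, and the arms share it too. On the percentile scale, which does not depend on the overall level of a library, the median histone window went from 78.6 on day 0 to 89.4, 78.9, 68.2 and 70.8 along the Nons arm, and to 85.2, 80.6, 78.5 and 69.1 along the knockdown arm.

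Days 6 and 7 were then set against days 4 and 5 within each arm. The change in percentile was negative in both arms in 49 of the 98 histone windows (50%) and positive in both in 10 (10.2%). Among the other promoter windows the shares were 25.3% and 26.5%, and among the 8966 of them with a mean percentile between 57.7 and 84.1, the middle range of the histone windows, they were 31.9% and 19.9%. The median change was -9.19 percentiles in Nons and -4.53 in the knockdown for histone windows, against -4.28 and -2.95 for the other promoter windows of that range. In the 182 windows between histone genes it was 3.61 and 0.709. In 6 histone windows (6.12%) all 4 late libraries were below all 4 early ones, against 1.56% of the other promoter windows, and in 1 window they were all above, against 1.7%.

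**Figure D5:**
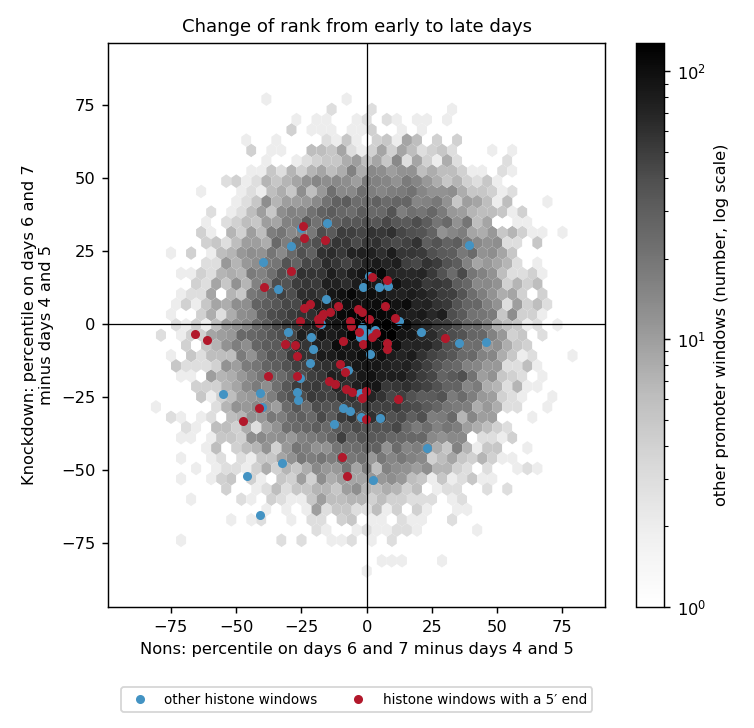
Change in percentile from days 4 and 5 to days 6 and 7 in Nons (horizontal axis) and in the knockdown (vertical axis), with 1 point per histone window over the density of the 29508 other promoter windows (grey, number on a log scale). Of the 98 points, 49 lie in the lower left quadrant and 10 in the upper right.

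A limma fit of late against early days over all windows, on quantile-normalised values with a term for the arm, called 1 window at an adjusted p of 0.05 (0.000121% of all windows), which was not a histone window. At an unadjusted p under 0.05, 23 histone windows (23.5%) were lower and 1 was higher on the late days. The background was 2.93% lower and 2.6% higher over all windows, and 7.03% lower and 3.38% higher over the other promoter windows. Neither background was matched for level. By percentile, other promoter windows of similar rank fell in both arms more often than all of them (31.9% against 25.3%). Of the 23 windows, 14 were start windows. Leaving out day 4 of Nons brought the count of lower windows to 13, and the counts without 1 of the other libraries were 16 to 29. The day and the library cannot be told apart, since each arm gave 1 library a day.

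The lowest p was that of the start of Hist1h1a, the H1.1 gene. It was at 50.9% and 57.3% in Nons on days 4 and 5 and at 22.2% and 10% on days 6 and 7, and in the knockdown at 47.7% and 48.9%, then 21.1% and 18.9%. The early and late libraries did not overlap in either arm, with a limma difference of -24.4 ± 4.02 points (SE, adjusted p = 0.166). Its day 0 value, 2.78%, was below all of them. The start of Hist1h4i was at 36.0% and 43.0%, then 7.84% and 13.3% for Nons, and at 31.5% and 44.1%, then 27.2% and 8% in the knockdown (-15.0 ± 4.10 points, adjusted p = 0.788). Hist2h4, the most open window, also stood lower late, by a limma difference of -13.8 ± 3.72 points (adjusted p = 0.784), with a percentile difference of -9.10 for Nons and -5.94 for the knockdown. The repeated window of Hist1h4m (-14.5 ± 3.69 points, adjusted p = 0.744) and the start of Hist1h4j (-11.8 ± 4.67 points, adjusted p = 0.895) completed the 5 largest differences relative to other promoters among the windows with the same sign in both arms. The window of Hist1h1c, whose mean of -14.4 points lay in this range, is not among them, since its difference was positive in the knockdown arm (4.36 points). The 5 were ranked in points relative to other promoters, not by the limma difference, which was larger for a window of Hist2h3c2 (-12.55) than for the Hist1h4j start. By percentile the Hist1h4j start hardly changed in Nons (-0.391) and fell in the knockdown (-23.01).

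In the opposite direction, the pair Hist3h2a and Hist3h2bb-ps had the largest positive difference relative to other promoters among the windows with 1 sign in both arms, 16.3 points in the Nons arm and 5.32 in the knockdown arm, with 55.3% on day 7 of Nons and 54.3% on day 6 of the knockdown. On day 7 of the knockdown this window was at 12.5%, below its 25.6% and 44.8% on days 4 and 5. It was followed by a window inside Hist1h2be (10.6 and 7.49 points), the start of Hist4h4 (0.763 and 10.9), Hist1h1t (9.61 and 1.25) and another window inside Hist1h2be (9.30 and 0.477). These signs were taken in points. By percentile, the Hist3h2a and Hist3h2bb-ps window rose in Nons (7.695) and fell in the knockdown (-8.399), as did Hist1h1t (30.03 and -4.672). The first Hist1h2be window (39.13 and 27.09) and the start of Hist4h4 (2.254 and 15.97) rose in both arms by percentile too. The first of the Hist1h2be windows was the 1 histone window past an unadjusted p of 0.05 in this direction (8.35 ± 3.77 points, limma adjusted p = 0.901). By type, start windows with a negative change in percentile in both arms were 3 of 6 for H1 (50%), 8 of 12 for H3 (66.7%) and 7 of 13 for H4 (53.8%). For H2A they were 7 of 20 (35%) and for H2B 5 of 19 (26.3%). The share was 25.3% of the other promoter windows and 31.9% of those of similar mean percentile, so H2A and H2B were near background. The median change in the knockdown was -6 for H1, -5.65 for H3, -2.64 for H4, -0.149 for H2A and 1.14 for H2B. The types were not tested against each other.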

How the data were processed

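NOMe-seq was measured in 9 libraries of female FVB/CAST F1 mouse embryonic stem cells. The deposited table, made by the authors with Bismark on mm10 with the SNPs between the parental strains masked and with Seqmonk, gives the percent GpC methylation of each window of 200 read positions, with no depth and no normalization between libraries (833294 windows, of which 829493 on chromosomes 1 to 19 and X had all 9 values). The alleles were merged, and the Bismark version is not given in the sources used here. Windows were matched to GENCODE M21 genes of the same build. Percentiles were taken among 29508 autosomal windows with the start of another protein-coding or long non-coding gene. limma 3.58.1 (R 4.3.3) was fitted over all windows with Benjamini-Hochberg adjustment, for the knockdown (day as block, values as deposited) and for late against early days (arm as a term, quantile-normalised). Both fits were run on simulated data with independent normal noise and an added shift larger than the limma differences reported here. Their power at the sizes seen in these data was not tested. Medians and motifs were computed in Python 3.11.15. A repeated word is a 31-base word found more than once on chromosomes 3, 6, 11 and 13. No interval is given, since the number of reads is unknown.

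Named windows were the 6 highest and 6 lowest by mean percentile, the 5 largest differences each way with 1 sign on all 4 days of knockdown, the 5 largest each way late against early with 1 sign in both arms, Hist3, Hist4, testis and H1 genes, and the ends of the Hist1 runs. The members and lists were chosen with earlier results of these data known.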

Additional observations from a re-analysis of the deposited data

Results flagged for a closer look

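The difference between the knockdown and Nons libraries, relative to the other promoter windows, had opposite signs on 2 days. Over the 98 histone windows it was -4.94 points on day 4 and 2.32 points on day 6. Over the 52 start windows it was -6.76 points on day 4 and 4.57 points on day 6. As a log2 ratio to the other promoter windows, the median of the 98 windows was at 0.813 in Nons and 0.767 in the knockdown on day 4. On day 6 it was at 0.420 and 0.609. Each day is 1 pair of libraries, so that no test of day 4 against day 6 was made. Day 4 of Nons was also the library in which the histone windows ranked highest (percentile 89.4), and day 6 of Nons the one in which they ranked lowest (68.2).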

How the results depend on the processing

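Histone windows stayed above the other promoter windows in all 9 libraries under each alternative tried for the level and the percentile. The mean difference was 12.28 points and the mean percentile 87.14 with start windows only, 4.292 points and 67.32 without the histone windows with over 10% repeated 31-base words (49 of 98, most of them start windows), and the percentile was 69.24 as a mean over windows. Against the promoter windows of protein-coding genes only, the difference was 6.174 points and the percentile 71.64. Leaving out 1 library gave 7.147 to 8.354 points and percentiles of 76.23 to 78.88. The mean knockdown difference stayed within its SD over days under each alternative except without day 4 (1.185 ± 1.153 points), and its sign was not stable: it was 0.8569 points without Hist1, 0.2434 against other promoter windows of similar mean percentile, and -1.235 to 1.185 with 1 day left out. The mean change from day 0 in Nons, 0.9462 points, was -0.4758 points without Hist1 and -0.02882 points against windows of similar mean percentile. Late against early, the histone windows past an adjusted p of 0.05 were 0 on quantile-normalised values (24 at an unadjusted p under 0.05), 1 on the values as deposited and 6 on their arcsine scale. Those past an unadjusted p of 0.05 were 67 and 59 on these scales, in which the overall level of the late libraries was not removed, and 13 to 30 with 1 library left out. The comparisons with similar CpG density, repeated words and similar percentile, that without the windows over 9 kb, and all late against early counts at an unadjusted p of 0.05 were chosen after seeing the data. The knockdown fit pairs the arms by day, and each group holds 1 library, so that no replicate number could serve as a further block. The unknown depth limits each single window.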
